A study of Mus musculus with 12 samples.

Results

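The small RNA of mouse spermatids was compared with that of R1, a diploid mouse embryonic stem cell (ESC) line. The libraries were chosen by label alone, as the 2 of R1 and the 3 of spermatids, 5 of the 12 libraries of the series, and the haploid ESC libraries were left out. The study as a whole also profiled haploid ESC, and named let-7a in its title in connection with the return of such cells to a diploid state. The comparison asked how the miRNA content of a haploid male germ cell differs from that of a diploid pluripotent line. Both groups carried the wild-type genotype (WT) and were collected by fluorescence-activated sorting (treatment: Sorting). The spermatids, named mRS in the labels and RS here, came from testes of 129Sv males and were sorted after staining with the DNA dye Hoechst 33342. The sources used here did not give the age or number of the males, or say whether animals were pooled. The replicates were described as independent sorts, so p-values measured the spread between these libraries, which may be technical, and R1 stood for diploid ESC as a single line. Ploidy, cell type, origin in culture or testis and sequencing depth differed together between the groups and cannot be told apart.

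A miRNA is a short RNA cut from a hairpin precursor, either arm of which (5p or 3p) can give the mature strand. Loaded into an Argonaute protein, it pairs with messenger RNAs mainly through its seed, and miRNAs that share a seed are grouped as a family because they can pair with overlapping sets of messages. Mouse ESC are known for the miR-290 and miR-302 clusters, which promote cell cycling and pluripotency, and for low mature let-7, whose maturation is blocked by the RNA-binding protein Lin28. Meiotic and postmeiotic male germ cells are known for miR-34b/c and miR-449 and for a fast-evolving group of X-linked miRNAs.

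Sequences of leading families and clusters are printed here 5′ to 3′ from RefSeq (GRCm38.p6), in lower case with the seed, bases 2 to 8, in capitals. Some abundant strands, among them miR-34c-5p and miR-375-3p, had no reference sequence there and are not printed. Features without a seed held 7.83% and 7.80% of counts in R1 and 22.1%, 35.15% and 42.5% in RS replicates 1, 2 and 3. Shares of a seed leave these features out. In R1, 6 of the printed strands of the miR-290 cluster fell into 2 seed groups, the second of which the miR-302 cluster shared, and miR-293-3p and miR-292b-3p had seeds of their own:
miR-292a-5p: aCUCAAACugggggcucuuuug
miR-293-5p: aCUCAAACugugugacauuuug
miR-290a-5p: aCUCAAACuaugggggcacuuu
miR-291a-3p: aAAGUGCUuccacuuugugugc
miR-294-3p: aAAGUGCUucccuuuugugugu
miR-295-3p: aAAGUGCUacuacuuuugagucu
miR-302b-3p: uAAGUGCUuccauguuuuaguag
miR-302d-3p: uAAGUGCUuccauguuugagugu
miR-293-3p: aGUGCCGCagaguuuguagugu
miR-292b-3p: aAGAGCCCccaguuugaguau
Among features with a sequence, the seed CUCAAAC held 24.5% and 25.3% of all counts in the R1 libraries and 0.00287%, 0.336% and 0.0216% in RS replicates 1, 2 and 3. The seed AAGUGCU held 6.08% and 5.59% in R1 against 0.00451%, 0.0760% and 0.00480% in RS. miR-293-3p alone, with the seed GUGCCGC, held more than that in R1, 9.45% and 10.1%. miR-292b-3p, which lies antisense to miR-292a and may share its reads, held 4.69% and 4.94%.

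In RS the leading families were miR-34 and miR-449, with one seed on the 5p strands and another on the 3p strands of miR-34b and miR-34c, and the X-linked testis cluster, in which few strands shared a seed. miR-34a, printed last, shares the 5p seed but was the member that went the other way:
miR-34b-5p: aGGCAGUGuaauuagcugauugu
miR-449a-5p: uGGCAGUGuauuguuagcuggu
miR-34b-3p: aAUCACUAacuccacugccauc
miR-34c-3p: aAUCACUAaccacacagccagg
miR-881-3p: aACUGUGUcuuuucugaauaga
miR-871-3p: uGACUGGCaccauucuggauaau
miR-743a-3p: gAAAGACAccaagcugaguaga
miR-743b-3p: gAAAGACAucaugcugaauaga
miR-34a-5p: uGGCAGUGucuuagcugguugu
The pair miR-743a-3p and miR-743b-3p, with the seed AAAGACA, took 0.00185% and 0.00216% of counts in R1 and 0.389%, 1.16% and 0.488% in RS. Without miR-34c-5p, which had no reference sequence, the seed GGCAGUG held 0.171%, 0.486% and 0.663% of RS counts. The seed AUCACUA held 0.752%, 1.43% and 1.17%.

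The let-7 family shares the seed GAGGUAG, and its members differ at few other bases, so reads of one member can be assigned to another:
let-7a-5p: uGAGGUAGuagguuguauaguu
let-7b-5p: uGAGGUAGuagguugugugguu
let-7c-5p: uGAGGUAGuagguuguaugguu
let-7d-5p: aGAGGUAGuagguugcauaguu
let-7e-5p: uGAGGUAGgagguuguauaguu
let-7f-5p: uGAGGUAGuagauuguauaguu
let-7g-5p: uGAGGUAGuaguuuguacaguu
let-7i-5p: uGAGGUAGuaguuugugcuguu
miR-98-5p: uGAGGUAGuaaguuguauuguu
This seed rose from 0.280% and 0.292% of counts in R1 to 4.50%, 3.39% and 4.42% in RS, as a sum of the 9 strands and with no test of the sum.

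Depth differed widely. The R1 libraries held 7632174 and 9176080 counts and the RS libraries 243714, 155232 and 166695, so that 1 count equalled 0.109 to 0.131 CPM, counts scaled to the same total in every library in R1 and 4.10 to 6.44 CPM in RS. Exact 95% binomial intervals of a share of counts were at most 0.249 percentage points to either side in RS and 0.0355 in R1. With no molecular identifiers on the reads, these intervals and the floors used for counts of 0 cover only counting error. Between 491 and 543 features had a count in an RS library against 1044 and 1086 in R1, but at the depth of the shallowest library 525 and 533 were expected in R1 and 459 to 543 in RS. The 10 most abundant features took 58.5% to 65.0% of counts in each of the 5 libraries. Ligation of adapters differs in efficiency between miRNAs, so levels of different miRNAs are not molar amounts. In a bulk sample, fewer cells of a type and less RNA per cell cannot be told apart.

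The labels matched the defining markers, and RS replicate 2 stood apart in one of them. miR-34b, miR-34c and miR-449a, the germ cell markers, held 8.75%, 25.1% and 30.6% of RS counts with their family and 0.0692% and 0.0664% of R1 counts. The miR-290 cluster, the marker of pluripotent cells, held 49.1% and 50.2% of R1 counts. In RS it held 0.00985% (exact 95% interval 0.00631 to 0.0147) in replicate 1, 0.678% (0.637 to 0.720) in replicate 2 and 0.0432% (0.0338 to 0.0544) in replicate 3. The 8 most abundant strands of the cluster each stood in RS replicate 2 at 0.984% to 1.55% of their R1 share, against 0.00419% to 0.332% in replicate 1 and 0.0237% to 0.243% in replicate 3. Values resting on this cluster are therefore also given without that library. RS replicate 1 held the most counts of mesenchymal, blood and endothelial miRNAs.

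Of 390 features tested with edgeR's quasi-likelihood test, 312 (80.0%) differed at an adjusted p under 0.05, 316 before adjustment. Of those tested, 36.2% (141 features) were higher in RS and 43.8% higher in R1, and 309 of the 312 differed at least 2-fold. A difference of at least 16-fold was reached by 81 in favour of RS and 102 in favour of R1. In 333 features (85.4%) the lowest library of one group lay above the highest of the other. With such a background, a call on one miRNA says little of what is particular to it, and sizes and values in each library are given beside every call. The first principal component held 91.4% of the variance and separated the groups, and the second held 5.10%. The split of calls moved with the scaling: trimmed mean of M-values (TMM), used throughout, gave a median log2 difference of -0.23 over all tested features, total counts gave 0.12 with 152 higher in RS and 162 in R1, and TMM without the miR-290 cluster gave -0.94 with 120 and 193.

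**Figure D1:**
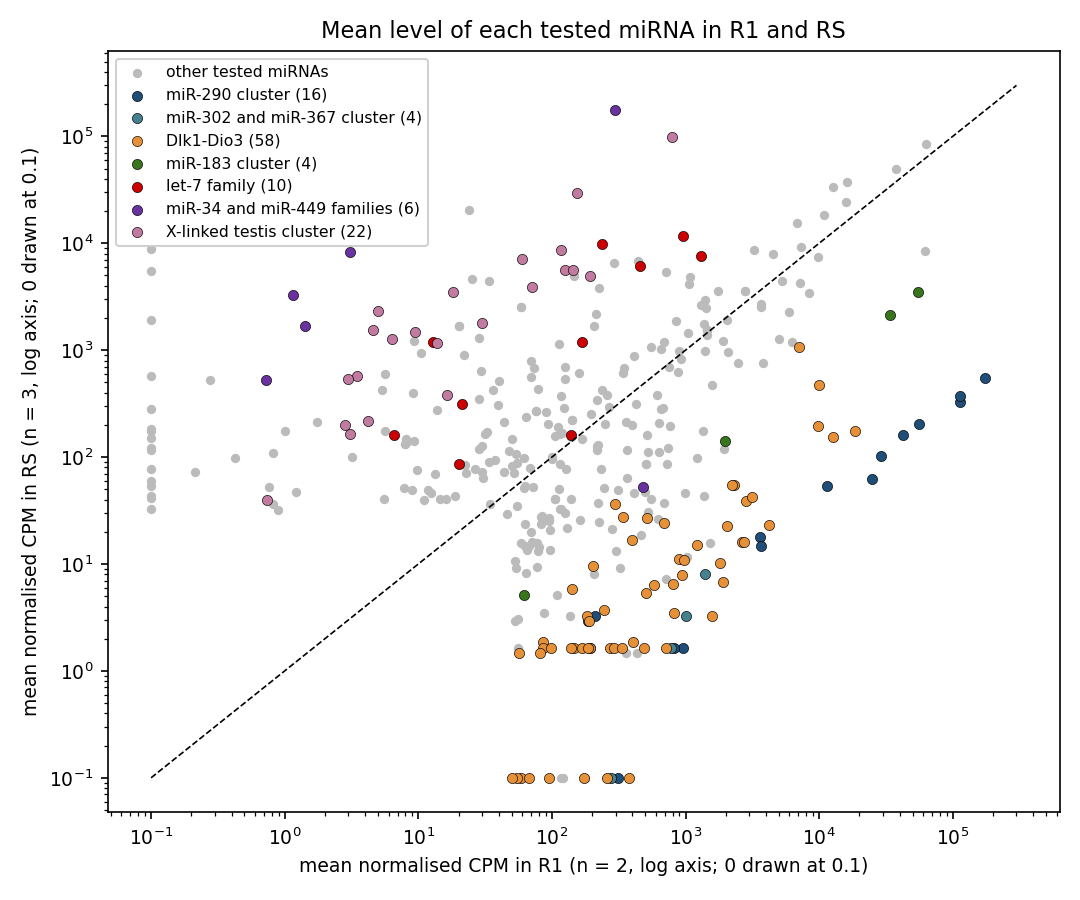
Mean normalised CPM of each tested feature in R1 (x axis, n = 2) and in RS (y axis, n = 3), both on log axes with 0 drawn at 0.1; colours mark lists of miRNAs with the number tested, and the dashed line is equality. The miR-290 and Dlk1-Dio3 members lie below the line, the X-linked testis cluster above it, and miR-34c-5p at 296 against 175315 normalised CPM.

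The germ cell families led the RS profile. miR-34c-5p, abundant in spermatids and carried into sperm, stood at 302.03 and 289.3 normalised CPM in R1 and at 83465, 175496 and 266986 in RS. It was the most abundant miRNA of RS replicates 2 and 3, where it took 23.2% and 28.7% of counts, and the groups lay far apart. Its log2 difference was 9.21 (SE 1.12, adjusted p 0.00012), a 593-fold difference. miR-34b-3p, from the same precursor transcript, read 3.12 and 3.08 normalised CPM in R1 and 6969, 8766 and 8957 in RS, 2620-fold higher (log2 11.36, SE 0.70, adjusted p 2.87e-05). miR-449a-5p, which with miR-34b/c is needed for sperm production and motile cilia, read 1.04 and 1.28 against 1505, 3125 and 5309. For these 3 strands replicate 1 was the lowest RS library. miR-34a-5p, the p53-induced member encoded on another chromosome, was the exception at 472.8 and 485.9 in R1 against 56.9, 38.9 and 61.3 in RS, 9.16-fold lower in RS (adjusted p 0.000127). In all, 6 of the 9 family features in the table were tested, 5 higher in RS and 1 in R1. Of all features tested, 36.2% were higher in RS and 43.8% in R1. Strands such as miR-34b-3p passed the low-count filter only through RS, so these counts are a description. The remaining 3 family features had at most 9 counts in any library.

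The X-linked testis cluster was the other leading group, at 0.154% and 0.153% of R1 counts and 24.5%, 19.96% and 13.7% of RS counts. All 22 of its tested features, of 32 in the table, were higher in RS, against 36.2% of all features tested. Their median log2 difference was 6.29, against -0.23 over all features tested. The 10 others had at most 17 counts in any library, and of the 22 tested, 8 reached the low-count filter's 41.0 CPM in both R1 libraries, while the others passed through RS, so the count of 22 is a description. miR-881-3p (chromosome X, 66801954 to 66801975, minus strand, in no gene on that strand) read 778 and 795 normalised CPM in R1 and 183886, 67930 and 45722 in RS. It was the most abundant miRNA of RS replicate 1, with 17.2% of its counts, and differed 126.1-fold between the groups (log2 6.98, SE 1.06, adjusted p 0.000376). miR-871-3p (chromosome X, 66810438 to 66810460, minus strand) read 161 and 148 against 27326, 26781 and 34060, 190-fold higher in RS with little spread (adjusted p 4.36e-05). The smallest difference among the 22 was that of miR-463-3p, at 14.8 and 17.7 against 328, 506 and 307 (log2 4.54, SE 0.48), and the largest that of miR-743a-3p, at 3.42 and 6.55 against 1597, 2901 and 2426 (log2 8.84, SE 0.67).

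The rest of the X chromosome went the other way. Outside the cluster, 27 X-linked features were tested, of which 2 were higher in RS, 20 in R1 and 5 in neither, with a median log2 difference of -2.20. Over all features tested, 43.8% were higher in R1 and the median was -0.23. Some of the 27, such as miR-106a-5p, passed the low-count filter only through R1, so these counts are a description. X-linked features outside the cluster held 0.804% and 0.820% of counts in R1 and 0.346%, 0.405% and 0.434% in RS. The groups did not overlap, as was so for 85.4% of all single features tested. The X-linked miR-106a and miR-363 cluster, a paralog of miR-17/92, gave part of this: its own strands held 0.183% and 0.174% of counts in R1 and 0.00369%, 0.0283% and 0.0114% in RS. miR-106a-5p had 850 and 839 counts in R1 and 0 in all RS libraries, at least 23.8-fold lower against a floor of 3 counts over the RS group. miR-221-3p and miR-222-3p, X-linked miRNAs of proliferating and vascular cells, did not pass, at 101 and 108 against 223.1, 87.6 and 161.7 normalised CPM for miR-221-3p.

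**Figure D2:**
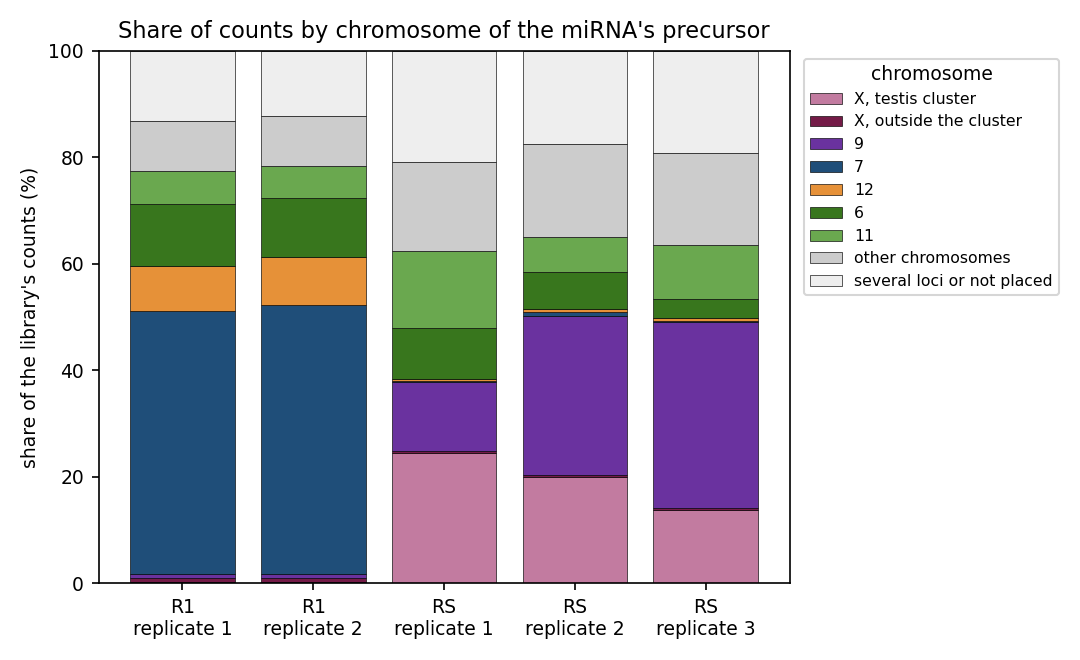
Share of each library's counts by the chromosome of the miRNA's precursor (y axis, %), one bar per library, with the X chromosome split into the testis cluster and the rest. Chromosome 7, which carries the miR-290 cluster, takes 49.4% and 50.5% of R1 bars, and chromosome 9, which carries miR-34b/c, takes 13.0%, 29.7% and 34.9% of RS bars.

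The let-7 family was higher in RS in 9 of its 10 tested features, of 20 in the table, with a median log2 difference of 3.69; 8 of the 10 were called with TMM computed without the miR-290 cluster, and 7 of 10 without either R1 library. Over all features tested, 36.2% were higher in RS. Of the 9, let-7b-5p, let-7d-5p, let-7d-3p and miR-98-5p lay under the low-count filter's 41.0 CPM in R1 and were tested through RS. The count of 9 is therefore a description. let-7a-5p, the miRNA of the study's title and a brake on growth genes such as Hmga2, read 223.2 and 250.5 normalised CPM in R1 and 11488, 6693 and 11539 in RS. That was a 41.8-fold difference with no overlap (log2 5.39, SE 0.61, adjusted p 8.15e-05). let-7g-5p, encoded in an intron of Wdr82 (chromosome 9, 106178846 to 106178867, plus strand), was the family's most abundant member in RS at 12635, 9988 and 12314, against 892 and 1007 in R1 (log2 3.62, SE 0.53). let-7b-5p rose most, from 11.4 and 14.1 to 1448, 900 and 1244, a 93.4-fold difference. In R1 the order of levels was different, with let-7f-5p first at 1258 and 1348.

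let-7i-5p stood at 453 and 461 normalised CPM in R1 and 8715, 3251 and 6514 in RS (log2 3.75, SE 0.59), let-7c-5p at 157 and 180 against 1186, 910 and 1456 (log2 2.81, SE 0.42). let-7d-5p read 20.05 and 22.72 against 192, 312 and 441, and the opposite arm let-7d-3p 5.35 and 7.70 against 149, 141 and 190, so both arms of that hairpin rose, by log2 3.87 and 4.60. let-7f-5p (3470 to 11821 in RS, log2 2.54, adjusted p 0.00545) and miR-98-5p, in an intron of Huwe1 on the X chromosome (19.7 and 20.8 against 170.6, 29.2 and 61.3, log2 2.13, adjusted p 0.00957), were the weakest calls. Without R1 replicate 1 or 2, let-7f-5p had an adjusted p of 0.0752 or 0.0893 and miR-98-5p of 0.149 or 0.181, and without RS replicate 1 miR-98-5p had 0.0656, and 0.0777 with miR-290 left out of the scaling. let-7e-5p did not pass, at 136.5 and 141.7 in R1 and 284, 43.8 and 156 in RS, where the RS libraries lay on both sides of R1 (log2 0.22, SE 0.63, adjusted p 0.75). Of the 20 features 18 had a count in some library, and 6 had none in RS.

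**Figure D3:**
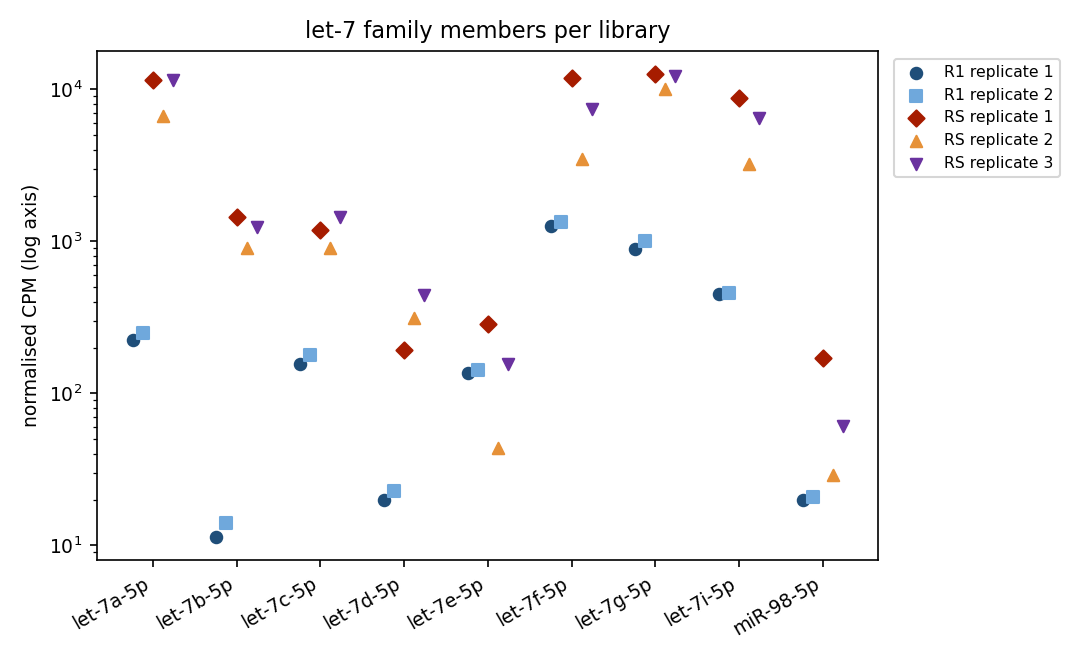
Normalised CPM (y axis, log scale) of the 9 let-7 strands that share the seed GAGGUAG, one point per library. RS points lie above both R1 points for 8 of the 9, and for let-7e-5p RS replicate 2 lies at 43.8, under both R1 points.

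The neighbours of let-7 divided by locus. miR-99a-5p and miR-100-5p, of the polycistronic let-7c and let-7a-2 loci, and miR-99b-5p, beside let-7e, share a seed but moved in opposite directions:
miR-99a-5p: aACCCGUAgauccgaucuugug
miR-100-5p: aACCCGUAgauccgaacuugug
miR-99b-5p: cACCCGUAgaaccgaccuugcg
miR-99a-5p read 38.2 and 29.4 normalised CPM in R1 and 2848, 5831 and 4573 in RS (log2 7.03, SE 0.62), and miR-100-5p 135 and 160 against 5727, 2220 and 6760 (log2 5.06, SE 0.66). miR-99b-5p was higher in R1, at 5862 and 6680 against 1133, 993 and 1472 (log2 -2.39, SE 0.39, adjusted p 0.000588). Its sign was not stable to a correction for GC content, which gave 0.19. miR-99b and let-7e lie in an intron of Spaca6 on the plus strand of chromosome 17, at 17830194 to 17830215 and 17830366 to 17830387, and the third strand tested there on the 5p side, miR-125a-5p, differed by log2 0.37 (SE 0.40, adjusted p 0.409). The table held 11 partner features, of which 6 were tested, 3 higher in RS and 2 in R1. Of all features tested, 36.2% were higher in RS and 43.8% in R1.

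The miR-181 family split in the same manner:
miR-181a-5p: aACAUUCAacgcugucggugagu
miR-181b-5p: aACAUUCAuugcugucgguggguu
miR-181c-5p: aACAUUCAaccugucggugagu
miR-181d-5p: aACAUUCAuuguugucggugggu
With one seed in common, miR-181a-5p, a regulator of lymphocyte signalling, stood at 24.5 and 32.6 normalised CPM in R1 and 2139, 647 and 1093 in RS, 45.2-fold higher in RS, and miR-181b-5p at 7.57 and 3.72 against 310.6, 92.5 and 128.3. miR-181d-5p, encoded with miR-181c in an intron of Nanos3 on chromosome 8, went from 1173 and 1283 in R1 to 109, 122 and 61.3 in RS, 12.5-fold lower, and miR-181c-5p from 221.8 and 227.6 to 21.9, 29.2 and 22.3. Of 6 tested features of 9 in the table, 3 were higher in RS and 3 in R1, a split that held under every scaling tried and without each RS library in turn. Over all features tested, 36.2% were higher in RS and 43.8% in R1, so these counts are near those of any features.

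Among pluripotency miRNAs, the miR-290 cluster was higher in R1 in all 16 tested features of 18, against 43.8% of all features tested. Some of the 16, such as miR-290a-5p with 0, 1 and 0 counts in RS, passed the low-count filter only through R1. The count of 16 is therefore a description. miR-292a-5p (chromosome 7, 3219200 to 3219221, plus strand, in no gene on that strand) was the most abundant miRNA of R1, at 167656 and 178249 normalised CPM against 13.1, 1460 and 162 in RS. It differed by log2 -8.31 (SE 1.73, adjusted p 0.00216), and by -11.18 without RS replicate 2. miR-293-5p read 109360 and 119156 against 17.5, 1071 and 39.0 (log2 -8.25, SE 1.77, and -12.20 without that library), and miR-294-3p, which shortens the G1 phase of ESC, 24503 and 25449 against 8.75, 161 and 16.7. The wide spread within RS was that of replicate 2. The median of the cluster was -8.12, or -8.06 with features at 0 in RS placed at their bound, and -12.3 without RS replicate 2, a median of fitted values over 18 tested features that include some at 0. miR-292b-3p and miR-290b-3p lie antisense to miR-292a and miR-290a, and the sources used here do not say whether counting used strand. Their reads may therefore not be told apart, and they may not be separate members. Elsewhere, miR-122-5p and miR-122b-3p had the same counts in every library, 426 and 415 in R1 and 493, 593 and 460 in RS. Whether reads were counted on both strands was not tested.

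The miR-302 and miR-367 cluster, typical of later pluripotent cells, had 22912 and 27837 counts in R1 and 0, 8 and 0 in RS. miR-302a-5p had 9083 and 11116 counts in R1 and 0, 5 and 0 in RS, and all 5 were in the replicate that carried more miR-290 reads. miR-302a-3p had 1820 and 2229 counts in R1 and none in RS, at least 57.0-fold lower. Of 10 features 4 were tested, each higher in R1 against 43.8% of all features tested, and 7 had no count in RS. All 4 passed the low-count filter only through R1, so this count is a description. A count of 0 allowed a level of up to 12.3, 19.3 and 18 CPM in RS replicates 1, 2 and 3.

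The imprinted Dlk1-Dio3 region on chromosome 12, whose miRNAs are read from the maternal chromosome and whose activity marks fully pluripotent mouse lines, held 8.46% and 9.02% of R1 counts and 0.187%, 0.458% and 0.258% of RS counts. The table held 109 of its features, of which 58 were tested, each higher in R1 with a median log2 difference of -6.48 (-6.26 with features at 0 at their bound), and 51 of the 109 had no count in RS. Over all features tested, 43.8% were higher in R1. Features at or near 0 in RS passed the low-count filter only through R1, so the count of 58 is a description. Without RS replicate 2 the median was -8.54 over 89 tested features and without RS replicate 3 it was -7.33, fitted values that include features at 0. miR-379-5p, first in its polycistron, read 17127 and 19964 normalised CPM against 83.1, 336 and 112 (log2 -6.71, SE 0.77), and miR-127-3p, antisense to Rtl1, 11366 and 14135 against 83.1, 258 and 117 (log2 -6.38, SE 0.65). Here too RS replicate 2 was the highest: without it the values were -7.75 and -7.17. miR-409-3p (chromosome 12, 109743204 to 109743225, plus strand, in an intron of Mirg) was the exception in size, at 6534 and 7545 in R1 and 1089, 998 and 1093 in RS. Its difference of log2 -2.73 (SE 0.38) was the smallest of the 58, and of the 87 miRNAs with at least 1000 normalised CPM in RS it had the narrowest spread. miR-431-5p had 2180 and 3364 counts in R1 and 0 in RS, at least 78.0-fold lower. miR-376c-3p and miR-329-3p were also at 0 in RS.

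**Figure D4:**
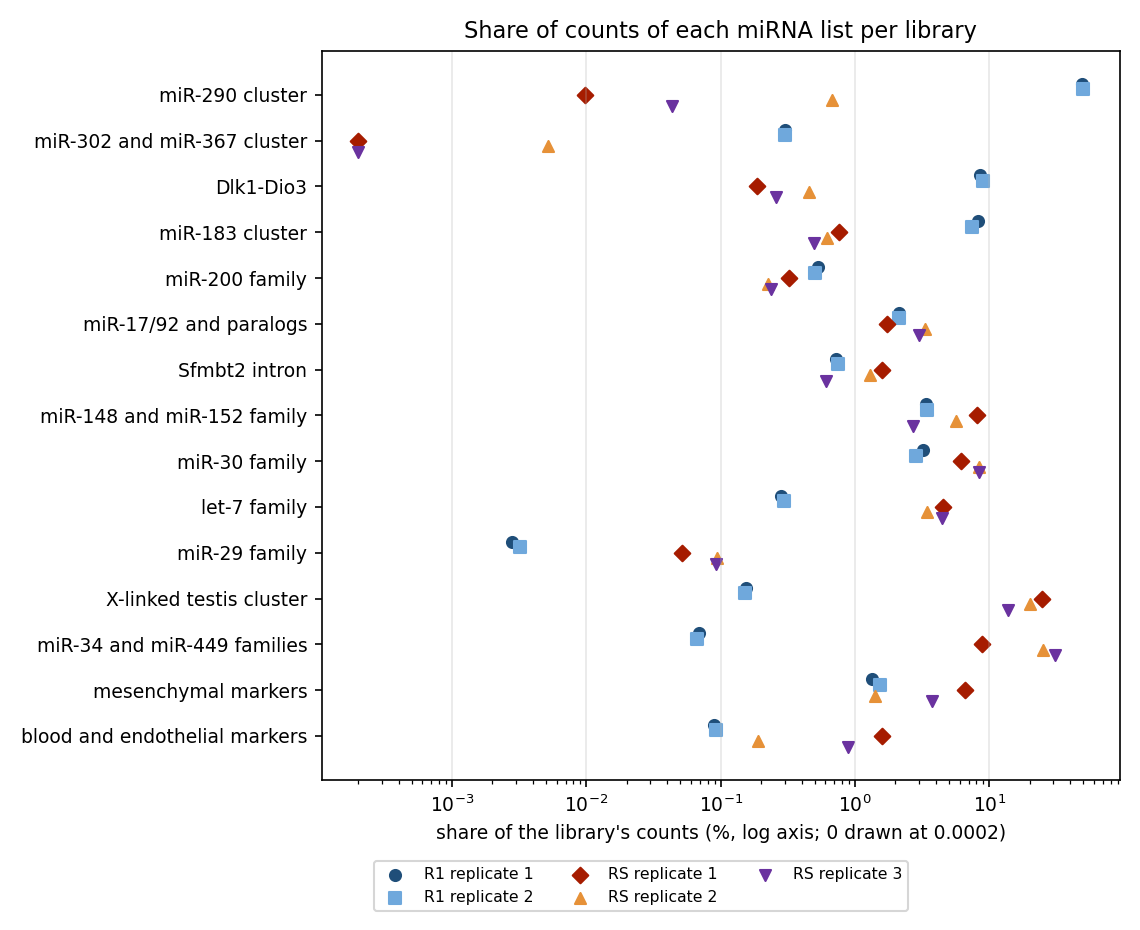
Share of each library's counts (x axis, %, log scale, 0 drawn at 0.0002) taken by each list of miRNAs, one marker per library. The 2 R1 markers almost coincide in each row, the RS markers spread more, and RS replicate 2 is the highest RS library for the miR-290 cluster and the lowest for the mesenchymal and the blood and endothelial markers.

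Other clusters of R1 fell less far. miR-182-5p and miR-183-5p, of a cluster best known from sensory organs, stood at 57831 and 51701 and at 33375 and 34547 normalised CPM in R1, against 5018, 2974 and 2493 and 2962, 1489 and 1985 in RS, 15.7-fold and 15.8-fold lower. All 4 tested features of 6 were higher in R1, against 43.8% of all features tested. miR-183-3p, with 0, 2 and 1 counts in RS, passed the low-count filter only through R1. miR-7a-5p, an islet and brain miRNA, was among the 10 most abundant of R1 at 67379 and 56548 and read 6116, 11687 and 7418 in RS (log2 -2.88, SE 0.59, adjusted p 0.00194). In the miR-200 family, guardians of epithelial state, miR-200b-3p was 4.97-fold lower in RS (3820 and 3770 against 1098, 550 and 641), whereas miR-200a-3p, of the same cluster, read 944 and 909 against 1050, 657 and 786 with overlapping groups. Its sign changed with total-count scaling and with GC correction, while it was called higher in R1 with miR-290 left out of the scaling (log2 -0.87, adjusted p 0.0462) and with DESeq2 (-0.67, adjusted p 3.28e-05). Of the 9 features 5 were tested, 2 higher in R1 and 3 in neither, which is near the 43.8% of all features tested.

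The miR-17/92 group, promoters of proliferation, differed by locus. The strands particular to the chromosome 14 cluster held 0.349% and 0.298% of counts in R1 and 0.0882%, 0.135% and 0.137% in RS. The miR-106b/25 cluster in Mcm7 on chromosome 5 held 1.18% and 1.22% against 1.05%, 1.95% and 1.50%, with overlap. There miR-25-3p read 4013 and 4945 normalised CPM in R1 and 7704, 8786 and 7546 in RS (adjusted p 0.118, and 0.00285 with GC correction and 0.0277 with limma voom), while miR-106b-5p fell from 679 and 713 to 39.4, 38.9 and 33.5. miR-92a-3p, which shares its seed with miR-25-3p, read 3056 and 3500 against 5679, 8406 and 12153 (log2 1.42, SE 0.52, adjusted p 0.0347). Without R1 replicate 1, R1 replicate 2 or RS replicate 3 its adjusted p was 0.263, 0.275 or 0.276, and it also missed the threshold with 3 of 5 other scalings (0.162 with relative log expression, 0.106 with TMMwsp, a TMM variant for sparse counts, and 0.209 without miR-290). Of 17 tested features of 28, 1 was higher in RS and 12 in R1, against 36.2% and 43.8% of all features tested. Some of the 17, such as miR-106a-5p with no count in RS, passed the low-count filter only through R1.

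In the miR-15/16 family, which restrains the cell cycle, 6 of 8 tested features of 10 were higher in RS. Of all features tested, 36.2% were higher in RS and 43.8% in R1, and the counts in this paragraph are a description. miR-15b-5p rose from 201 and 215 to 1627, 1962 and 1444 (log2 3.01, SE 0.40, adjusted p 0.000174). miR-16-5p, from 1343 and 1288 to 2279, 3354 and 2342, was called at log2 1.02 (adjusted p 0.0418). The call of miR-16-5p ended with 4 of 5 other scalings (0.289 with relative log expression, 0.0780 with upper quartiles, 0.155 with TMMwsp and 0.443 without miR-290). It also ended with DESeq2 (0.181), a stricter filter (0.114) and all 12 libraries (0.243), and without RS replicate 2 (0.0560) or 3 (0.221). Without R1 replicate 1 or 2 the log2 difference was 0.99 or 0.70. Under the other scalings but total counts, 4 of the 8 were called higher in RS. The 2 called lower were star strands, miR-15b-3p and miR-16-1-3p. In the miR-30 family 6 of 9 tested features of 11 were higher in RS, 4 without either R1 library. miR-30c-5p, with 1097 and 1049 against 5368, 5476 and 3720, was 4.53-fold higher (adjusted p 0.00161), while miR-30d-5p at 13131 and 12237 against 27877, 32432 and 41305 had an adjusted p of 0.0468, which was 0.253, 0.378 and 0.271 without R1 replicate 1, R1 replicate 2 and RS replicate 3. That call also ended with 4 of 5 other scalings (0.187 with relative log expression, 0.0569 with upper quartiles, 0.116 with TMMwsp and 0.229 without miR-290). miR-29a-3p and miR-29b-3p, which target collagens and DNA methyltransferases, were the tested 2 of 7 miR-29 features, and miR-29a-3p read 27.2 and 32.2 against 490, 638 and 803 (log2 4.43, SE 0.46).

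Single miRNAs of high level outside these groups are known from other tissues. miR-375-3p, best known from pancreatic islets, read 23.2 and 25.2 normalised CPM in R1 and 16266, 20429 and 24952 in RS, 849-fold higher with little spread (log2 9.73, SE 0.79, adjusted p 2.87e-05). miR-184-3p, known from the eye, read 24.1 and 26.4 against 7048, 2765 and 4177 (184-fold). miR-10a-5p, from the HoxB cluster, rose from 221 and 227 to 5250, 3032 and 3224, whereas miR-196a-5p, also from Hox clusters, fell from 982 and 1059 to 0, 29.2 and 5.58. The tested Hox-cluster features were 4 of 8, 1 higher in RS and 2 in R1, against 36.2% and 43.8% of all features tested.

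Some of the strongest RS miRNAs had no count in R1. Such features, at 0 in both R1 libraries with a count in all 3 RS libraries, numbered 29, and at the depth of R1 a count of 0 allowed at most 0.393 and 0.327 CPM. The most abundant pair is printed:
miR-7210-5p: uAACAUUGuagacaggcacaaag
miR-468-5p: gACUGAUGuacugauaagaaacucagu
miR-7210-5p (chromosome 14, 24088877 to 24088899, plus strand, in no gene on that strand) had 3831, 1201 and 726 counts in RS, at least 45449-fold higher than in R1 against a floor of 3 counts over the group. miR-468-5p had 1848, 1098 and 541 counts, at least 27524-fold, and miR-7214-5p stood at 1277, 1777 and 2699 normalised CPM. In the other direction, 369 features had a count in both R1 libraries and none in RS, but 8 of them reached 100 normalised CPM in R1, among them miR-431-5p and miR-291b-5p.

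Several abundant miRNAs did not pass between the cell types. miR-21a-5p, an oncogenic miRNA in exon sequence of Vmp1, read 62144 and 63158 normalised CPM in R1 and 135250, 36365 and 80691 in RS (log2 0.42, SE 0.74, adjusted p 0.607). miR-148a-3p, a regulator of DNA methyltransferase 1, read 36223 and 38599 against 83360, 41222 and 24144 (log2 0.41, SE 0.70), and miR-26a-5p 15253 and 16620 against 37506, 11653 and 23619 (log2 0.61, SE 0.65). In each of the 3, RS libraries lay on both sides of the R1 level, and the sign changed under at least 1 other scaling. miR-30a-5p at 11127 and 10464 against 20160, 13755 and 20736 and miR-191-5p at 6710 and 6901 against 10526, 16223 and 19375 did not overlap, with adjusted p-values of 0.215 and 0.0756, and miR-30a-5p was called higher in RS with GC correction (0.0239) and limma voom (0.0455). In the Sfmbt2 intron cluster 16 of 22 tested features of 67 were not called, with 5 higher in RS and 1 in R1. Without RS replicate 1, 2 or 3, 5, 4 or 4 were higher in RS and 7, 8 or 9 in R1, over more features tested. Its miR-467a-5p and miR-467b-5p, with identical counts, read 2656 and 2950 against 6457, 2794 and 1511. Of all 390 features tested, 78 were not called, 36.2% were higher in RS and 43.8% in R1. In the family of miR-148 and miR-152, 2 of 5 tested features were lower in RS, in that of miR-26 and miR-101 1 of 4, and in that of miR-221 and miR-222 none of 2, with an adjusted p of 0.0546 for miR-222-3p. miR-101a-3p (log2 -1.28, adjusted p 0.0865) was called lower in RS under 9 alternatives, among them relative log expression (0.0174), TMMwsp (0.0340) and leaving out RS replicate 1 (0.0131). miR-222-3p was called higher in RS with upper-quartile (0.0382) or total-count (0.0142) scaling, with a stricter filter (0.0376), with GC correction (0.00397) and without RS replicate 2 (0.00215). miR-221-3p was called with GC correction (0.0160) and without RS replicate 2 (0.0484).

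The arm used by a hairpin was mostly shared. Of 473 hairpins with both arms in the table, 75 had at least 50 counts in each of the 5 libraries, and in 3, miR-1843b, miR-199a and miR-28a, one arm had more than 50% of the counts in both R1 libraries and the other arm in all RS libraries. For miR-28a the 5p arm made up 44.1% and 47.5% of the hairpin's counts in R1 and 99.4%, 95.2% and 95.4% in RS. miR-28a-5p rose from 63.0 and 77.7 normalised CPM to 761, 672 and 920, while miR-28a-3p fell from 79.7 and 85.8 to 4.37, 34.1 and 44.6. The 2 arms have different seeds:
miR-28a-5p: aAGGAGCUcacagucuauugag
miR-28a-3p: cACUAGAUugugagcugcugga

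The 3 RS libraries held a common core. Of 658 features with a count in any of them, 382 had one in all 3, and these took 99.9%, 99.7% and 99.9% of the counts of replicates 1, 2 and 3. Of the 20 most abundant miRNAs of each library 13 were shared by all: let-7a-5p, let-7g-5p, miR-143-3p, miR-148a-3p, miR-191-5p, miR-21a-5p, miR-26a-5p, miR-30a-5p, miR-30d-5p, miR-34c-5p, miR-375-3p, miR-871-3p and miR-881-3p. Spearman's rho across the 390 tested features was 0.887 between replicates 1 and 2, 0.953 between 1 and 3 and 0.917 between 2 and 3, a description across features that are not independent, against 0.998 between the R1 libraries. Of the 87 miRNAs with at least 1000 normalised CPM in RS, 43 (49.4%) differed at least 2-fold between the highest and the lowest RS library, and 13 at least 4-fold. None of 79 such miRNAs did so in R1, where there was 1 pair of libraries. By pair of RS libraries it was 34 of 87 between replicates 1 and 2, 21 between 1 and 3 and 19 between 2 and 3. The biological coefficient of variation fitted by edgeR was 0.0884 in R1 and 0.552 in RS. The steadiest RS miRNAs included miR-871-5p at 1470, 1582 and 1428, miR-465b-5p at 4633, 4979 and 5142, let-7g-5p, miR-871-3p and miR-34b-3p, so that members of the X-linked cluster, of let-7 and of miR-34b/c were among them.

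The RS libraries differed in their leading miRNAs. miR-881-3p was highest in replicate 1 and lowest in replicate 3, 4.02-fold apart, and miR-34c-5p was lowest in replicate 1 and highest in replicate 3. As shares of counts, the X-linked cluster stood at 24.5%, 19.96% and 13.7% in replicates 1, 2 and 3 and miR-34 with miR-449 at 8.75%, 25.1% and 30.6%. The order of the X-linked share rested on miR-881-3p: without it the cluster held 7.25%, 10.97% and 8.77%. Of its 22 tested strands 6 were highest in replicate 1, 9 in replicate 2 and 7 in replicate 3, whereas 5 of the 6 of miR-34 and miR-449 were highest in replicate 3. Over the 87 miRNAs every order of the 3 libraries occurred, the most frequent being replicate 1 above 3 above 2, in 21 miRNAs.

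Of the 13 miRNAs at least 4-fold apart between RS libraries, 8 are described here, and miR-881-3p, miR-7210-5p, miR-101a-3p, miR-467a-5p and miR-467b-5p were the others. miR-126a-3p, the endothelial miRNA in Egfl7, read 13015, 599 and 5951 normalised CPM in RS replicates 1, 2 and 3, 21.7-fold apart, and 274 and 309 in R1. Its call (log2 4.49, SE 1.19, adjusted p 0.0078) was lost without R1 replicate 1 (0.0586) or 2 (0.0617). miR-143-3p, of smooth muscle and peritubular cells, read 68467, 10226 and 33547 against 14891 and 17722 in R1, and was not called (adjusted p 0.214) except without RS replicate 2 (0.0380). miR-27a-3p (2196, 141 and 1221), miR-27b-3p (15719, 3324 and 8728), miR-203-3p of skin (1877, 263 and 1511) and miR-1a-3p of muscle (2489, 385 and 2231), whose RS counts were the same as those of miR-1b-5p, had the same order. miR-10b-5p was the one of the 8 widest with replicate 2 on top, at 1417, 7043 and 2331.

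**Figure D5:**
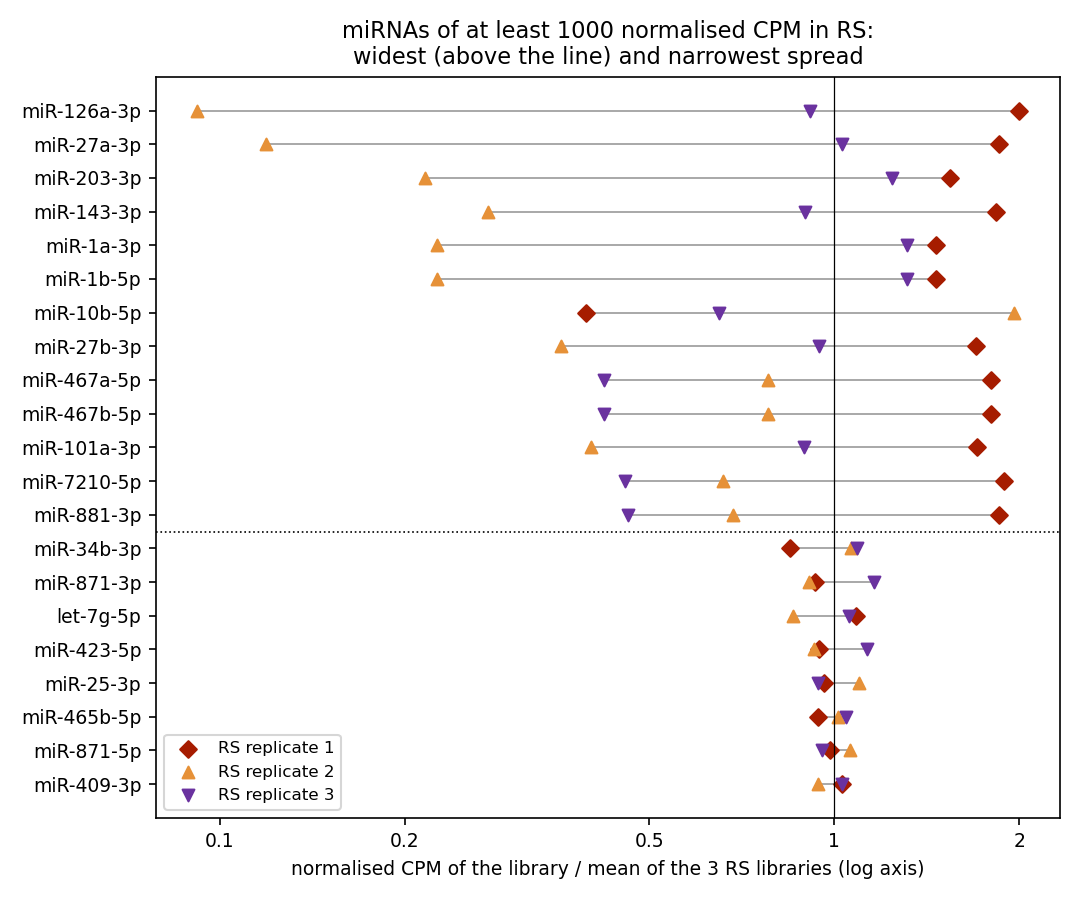
Normalised CPM of each RS library divided by the mean of the 3 (x axis, log scale) for miRNAs of at least 1000 normalised CPM in RS, with the widest spreads above the dotted line and the narrowest under it. RS replicate 2 is the low library for miR-126a-3p, miR-27a-3p, miR-203-3p, miR-143-3p and miR-1a-3p, and the high one for miR-10b-5p.

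Beside the counts of called markers given here, 36.2% of all features tested were higher in RS and 43.8% in R1. As whole lists, mesenchymal markers held 6.64%, 1.41% and 3.75% of counts in RS replicates 1, 2 and 3 against 1.34% and 1.53% in R1, so the groups overlapped. Of 9 features 6 were tested and 4 were higher in RS, but none was without R1 replicate 1 or without R1 replicate 2, 2 of 9 tested were without RS replicate 1, and 7 of 9 without RS replicate 2. Blood and endothelial markers held 1.58%, 0.190% and 0.888% in RS against 0.0888% and 0.0921% in R1, with 6 of 11 tested features of 17 higher in RS and 3 in R1 (5 to 11 higher in RS when a library was left out). The erythroid miR-451a read 4.90 and 6.29 normalised CPM in R1 and 1019, 326 and 435 in RS, and the leukocyte miR-142a-5p had 838 and 981 counts in R1 and 224, 23 and 93 in RS. Among the erythroid markers miR-486a-5p had 52 and 64 counts in R1 and 19, 19 and 40 in RS, and these 3 were called higher in RS. miR-144-3p had 1, 0 and 1 counts in RS, miR-223-3p 16, 0 and 1 and miR-150-3p none, while miR-142a-3p (17, 5 and 4) and miR-150-5p (23, 5 and 19) were called higher in R1. The Sertoli cell marker miR-202-5p had 2 and 1 counts in R1 and 21, 14 and 10 in RS, and its 2 arms together 0.0107%, 0.0142% and 0.00900% of RS counts. Of 8 tested lineage markers of 17, 5 were higher in RS, among them the neuronal miR-128-3p (651 and 769 against 3172, 6537 and 6592), and miR-9-5p (3656 and 3736 against 1894, 3879 and 2270) was called higher in R1 only without RS replicate 2 (adjusted p 0.0172) or with miR-290 left out of the scaling (0.0394). As shares of counts, the mesenchymal and the blood and endothelial lists both stood in the order of replicates 1, 3 and 2. In the blood and endothelial list, miR-126a-3p alone held 1.22%, 0.0792% and 0.640% of counts in RS replicates 1, 2 and 3. Among single features, all 6 tested mesenchymal ones had this order, but only 5 of the 11 tested blood and endothelial ones. The order of replicates 1, 3 and 2 was also that of 6 of the 10 tested let-7 features. These were let-7b-5p, let-7e-5p, let-7f-5p, let-7g-5p, let-7i-5p and miR-98-5p. It was that of miR-21a-5p, miR-26a-5p and miR-101a-3p as well. In let-7a-5p, let-7c-5p, let-7d-3p and let-7d-5p replicate 3 was the highest. Replicate 1 above 3 above 2 was also the most frequent order of the 87 abundant RS miRNAs, found in 21. It was that of 4 of 5 tested miR-200 features, 3 of 6 of miR-181, and both miR-221-3p and miR-222-3p. The part of other testis cells in those values, and in the let-7 differences, was not tested.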

How the data were processed

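The deposited table held raw counts of reads per miRNA for 12 libraries, as the authors made them, with no normalisation. The tools Bowtie 0.12.9 and DESeq2 are listed, per the submitters' processing notes. The sources used here did not give the build, the miRBase release, the handling of reads with several matches or the use of strand. Both RNA ends received adapters before PCR, per the labels' protocols, and these steps can favour some miRNAs. Of 1549 features 1366 carried a miRBase name and 183 a predicted one. Columns were matched to samples by title.

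edgeR 4.0.16 (R 4.3.3) was run on the counts of the 5 libraries: filterByExpr by group (minimum count 10, minimum total 15, which asked for about 41.0 CPM in as many libraries as the smaller group has), TMM scaling, the quasi-likelihood test of RS minus R1 with 3 residual degrees of freedom, two-sided, and Benjamini-Hochberg adjustment at 0.05 over all 390 features. The same steps were run on simulated counts that gave both groups one spread. In these data the biological coefficient of variation was 0.0884 in R1 and 0.552 in RS. The simulation therefore cannot show how the p-values behave at such an unequal spread. CPM called normalised were divided by the library total times its TMM factor. Where a group was at 0, the fold is a bound from a floor of 3 counts over the group. Shares of counts use all counts, with exact Clopper-Pearson intervals. Sequences and positions came from RefSeq (GRCm38.p6), where 1158 features had a mature sequence, and gene overlap from GENCODE.

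Lists comprised miRNA families, clusters and marker sets of other cells. The members, lists and tests were chosen with earlier results of these data known. Named miRNAs were the 10 most abundant per group, the 10 largest differences each way, the 2 most abundant of each list and every let-7, the 8 widest and 8 narrowest in RS, and up to 8 at 0 in each group. The others named were chosen after their values were seen. Alternatives were other scalings and filters, DESeq2 1.42.0, all 12 libraries, a replicate block, GC correction, leaving out each library, and, chosen after seeing the data, limma 3.58.1 voom with a variance weight per group.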

Additional observations from a re-analysis of the deposited data

How the results depend on the processing

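Of 88 named miRNAs, 60 kept their direction and their side of the threshold under every alternative run. The count of 312 changed features was 282 with a replicate block and 239 to 400 without 1 library, the number tested growing when an RS library was left out. The sample titles give same-numbered libraries only a number in common. Deviations of same-numbered R1 and RS libraries correlated at 0.096 and -0.0036. Deviations of the 2 R1 libraries mirror each other, so these values cannot show whether same-numbered libraries shared a batch. Of the named miRNAs the block ended the calls of miR-7a-5p (adjusted p 0.0660), miR-16-5p, miR-30d-5p, miR-423-5p and miR-92a-3p. With no filter on low counts 487 changed and 301 were higher in R1, with a stricter filter 268 and in a fit of all 12 libraries 271 were higher in R1, over more features tested. The number at least 2-fold apart in RS was 106 of 203 at 100 normalised CPM and above. At the shallowest depth the features with a count were 525.5 and 532.5 in R1.

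Direction turned, with the cause not tested, for 13 named miRNAs, 12 of them not called. let-7e-5p read -0.36 with relative log expression, -0.12 with TMMwsp, -0.49 without miR-290 in the scaling, -0.26 unfiltered, -0.36 with DESeq2, -0.19 in all 12 libraries, -0.19 with the block, -0.11 with voom, and -0.64 to 0.51 without 1 library. Under relative log expression, no miR-290, no filter, DESeq2 and all libraries, miR-148a-3p read -0.14, -0.30, -0.071, -0.14 and -0.0021, miR-27b-3p -0.25, -0.38, -0.15, -0.25 and -0.083, and miR-467a-5p with miR-467b-5p -0.20, -0.35, -0.12, -0.20 and -0.051. Under the first 4, miR-148b-3p read -0.10, -0.23, -0.0017 and -0.10, and miR-21a-5p -0.15, -0.28, -0.058 and -0.15. TMMwsp gave -0.015 for miR-27b-3p and -0.0079 for miR-467a-5p, and the block -0.021 for miR-27b-3p and -0.24 for miR-27a-3p. Without miR-290 in the scaling miR-221-3p read -0.11 and miR-26a-5p -0.10. miR-200a-3p read 0.17 with total counts and 0.29 with GC correction, which also turned miR-99b-5p to 0.19. Without 1 library the values ran from -0.079 (without RS replicate 2) to 1.32 for miR-10b-5p and, each lowest without RS replicate 1, from -0.30 to 0.36 for miR-148a-3p, -0.48 to 0.56 for miR-148b-3p, -0.23 to 0.61 for miR-21a-5p, -0.18 to 1.14 for miR-27a-3p, -0.42 to 0.56 for miR-27b-3p and -0.48 to 0.34 for miR-467a-5p and miR-467b-5p. miR-423-5p, called at 0.94, was at an adjusted p of 0.298, 0.415 and 0.306 without R1 replicate 1, R1 replicate 2 and RS replicate 3, and missed the threshold with 4 of 5 other scalings. At their depth, RS miRNAs under about 12.3 to 19.3 CPM could not be told from absent.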
